A study of Mus musculus with 24 samples.

Results

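The chitinase-like genes Chil1, Chil3 and Chil4 and the resistin-like genes Retnla and Retnlg were followed in mouse bone marrow-derived macrophages, as every probe set that the platform annotation ties to 1 of these symbols and to no other gene. The rule gave 4 probe sets of the 45037 tested, which covered 4 of these 5 genes and 4 of the 18193 genes with such a probe set. These were 1419764_at for Chil3, 1425450_at for Chil4, 1449015_at for Retnla and 1451537_at for Chil1. Retnlg had no probe set named here and was not analysed. The probe set 1425451_s_at is annotated to both Chil3 and Chil4, so it is not a member. Its values are given beside those of the pair, as the shared probe set.

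Marrow from 3 Stat6 knockout (KO) mice, numbers 4, 5 and 6, and from 3 wild-type (WT) mice, numbers 1, 2 and 3, was grown into macrophages with M-CSF, a macrophage growth factor, at 20 ng/ml. All mice were labelled C57Bl/6, and their age was not given in the sources used here. Per the study's methods the Stat6-/- line was bought from a commercial supplier, and every cell of these animals lacks STAT6, a transcription factor switched on by IL-4 receptor signalling. Each mouse gave 4 cultures of 10 days, which received IL-4 at 20 ng/ml plus 1 µM rosiglitazone (RSG, a synthetic PPARγ ligand), IL-4 plus vehicle (DMSO and ethanol), RSG without IL-4, or vehicle without IL-4. The 8 groups are called KO IL-4 RSG, KO IL-4 vehicle, KO control RSG and KO control vehicle, and the same for WT, with 3 arrays in each. The design asks what IL-4 and STAT6 contribute to the effect of a PPARγ ligand on macrophages.

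Chitinase-like proteins keep the fold of chitinases but lack their enzyme activity, and they are secreted. Chil3 and Chil4 encode Ym1 and Ym2, rodent proteins that serve as markers of macrophages activated by IL-4 or IL-13. Chil1 encodes a relative that is made by macrophages, neutrophils and epithelium in inflammation. Resistin-like proteins are small secreted cysteine-rich hormones. Retnla encodes RELMα, also known as FIZZ1, which is another marker of alternative activation, and Retnlg encodes RELMγ, which is known from marrow and blood myeloid cells.

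Chil3 and Chil4 are neighbours on the minus strand of chromosome 3, at 106147554 to 106167564 and 106201491 to 106219479 in GRCm38.p6, with 33926 bases between them. Retnla lies on chromosome 16 at 48842609 to 48844461, with 28146 bases between it and Retnlg. Chil1 lies on chromosome 1 at 134182156 to 134190031. The 250 bases before each start are shown because the study compares cells with and without STAT6, whose known site is a TTC and a GAA set apart by a short gap. Sequences were taken from the RefSeq promoter table of GRCm38.p6, in which all 4 measured genes were found, and run in the direction of the gene. They cover chr3:106167565-106167814 on the minus strand for Chil3, chr3:106219480-106219729 on the minus strand for Chil4, chr16:48842359-48842608 on the plus strand for Retnla and chr1:134181906-134182155 on the plus strand for Chil1. Capitals mark matches, on either strand, to TTCNNNNGAA, TTCNNNGAA and the C/EBP-like TTGCNNAA.
Chil3: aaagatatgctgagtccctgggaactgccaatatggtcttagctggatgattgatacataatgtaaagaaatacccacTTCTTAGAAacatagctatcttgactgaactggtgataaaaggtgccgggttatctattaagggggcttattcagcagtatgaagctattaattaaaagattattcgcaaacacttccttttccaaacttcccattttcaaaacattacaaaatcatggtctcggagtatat
Chil4: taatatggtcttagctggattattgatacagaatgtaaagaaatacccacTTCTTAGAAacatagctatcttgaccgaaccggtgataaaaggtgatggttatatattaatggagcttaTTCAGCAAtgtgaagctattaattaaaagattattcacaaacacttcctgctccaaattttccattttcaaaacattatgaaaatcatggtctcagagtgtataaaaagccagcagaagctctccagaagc
Retnla: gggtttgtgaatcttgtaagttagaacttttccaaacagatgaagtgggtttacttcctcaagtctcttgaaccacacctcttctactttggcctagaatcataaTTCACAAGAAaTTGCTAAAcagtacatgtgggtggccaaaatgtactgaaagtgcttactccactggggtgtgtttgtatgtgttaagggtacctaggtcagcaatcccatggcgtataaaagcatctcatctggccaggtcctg
Chil1: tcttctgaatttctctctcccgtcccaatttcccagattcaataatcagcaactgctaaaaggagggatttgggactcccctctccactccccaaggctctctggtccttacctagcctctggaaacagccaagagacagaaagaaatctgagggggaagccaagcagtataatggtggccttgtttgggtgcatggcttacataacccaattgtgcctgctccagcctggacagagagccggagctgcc

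The Chil3 and Chil4 windows held the same TTCNNNGAA match, TTCTTAGAA, with its first base 172 and 200 bases before the start. Retnla held a TTCNNNNGAA match, TTCACAAGAA, that began 145 bases before the start, and a TTGCNNAA match, TTGCTAAA, that began 134 bases before it, 1 base after the other match ended. Chil4 also held TTCAGCAA, a TTGCNNAA match on the other strand, 131 bases before its start. No match overlapped another, and the Chil1 window held none of the 3 motifs. Among all 32851 promoter windows of this length, 5.85% held TTCNNNNGAA, 7.02% held TTCNNNGAA and 9.56% held TTGCNNAA, so single matches are common and are a description only. The Chil3 and Chil4 windows were 90.5% identical over 222 aligned columns. Binding of STAT6 was not measured in these files.

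Each value is a log2 ratio in which 0 stands for the typical array of that probe set. Such ratios hold no absolute level, so no probe set's level is set against another's, and precision is limited by how many arrays there were. A change is a difference of group means on this log2 scale ± SE from limma, with 3 arrays in each group. A probe set was called at a Benjamini-Hochberg adjusted p under 0.05 over all probe sets and a change of at least 1.5-fold.

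Stat6 itself read -2.12 to -1.48 on the 12 KO arrays and 0.71 to 1.14 on the 12 WT arrays, without overlap. Whether its probes fall inside the deleted region was not examined here. Ratios cannot show that a marker is absent. The list mean over 11 markers of macrophage identity was -0.01 to 0.23 in KO IL-4 vehicle cultures and -0.75 to -0.61 in WT IL-4 vehicle cultures, and -0.26 to 0.33 in the cultures without IL-4. The genes of this list did not move together. Between KO and WT with IL-4 and vehicle 3 were called higher in KO, Aif1 (4.32), Fcgr1 (3.88) and Cd14 (2.93), and 2 lower, Itgam (-1.39) and Cd68 (-0.72), with a list median of -0.29, opposite in sign to the difference of the means. Over all probe sets the median of this comparison was -0.25, and 24.2% were called. Among the WT control vehicle arrays, that of mouse 3 stood apart and is described with Retnla. The highest means over 13 stromal fibroblast markers were 3.38 on the mouse 6 array of the KO control RSG group and 1.70 on the mouse 2 array of the WT control vehicle group.

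**Figure D1:**
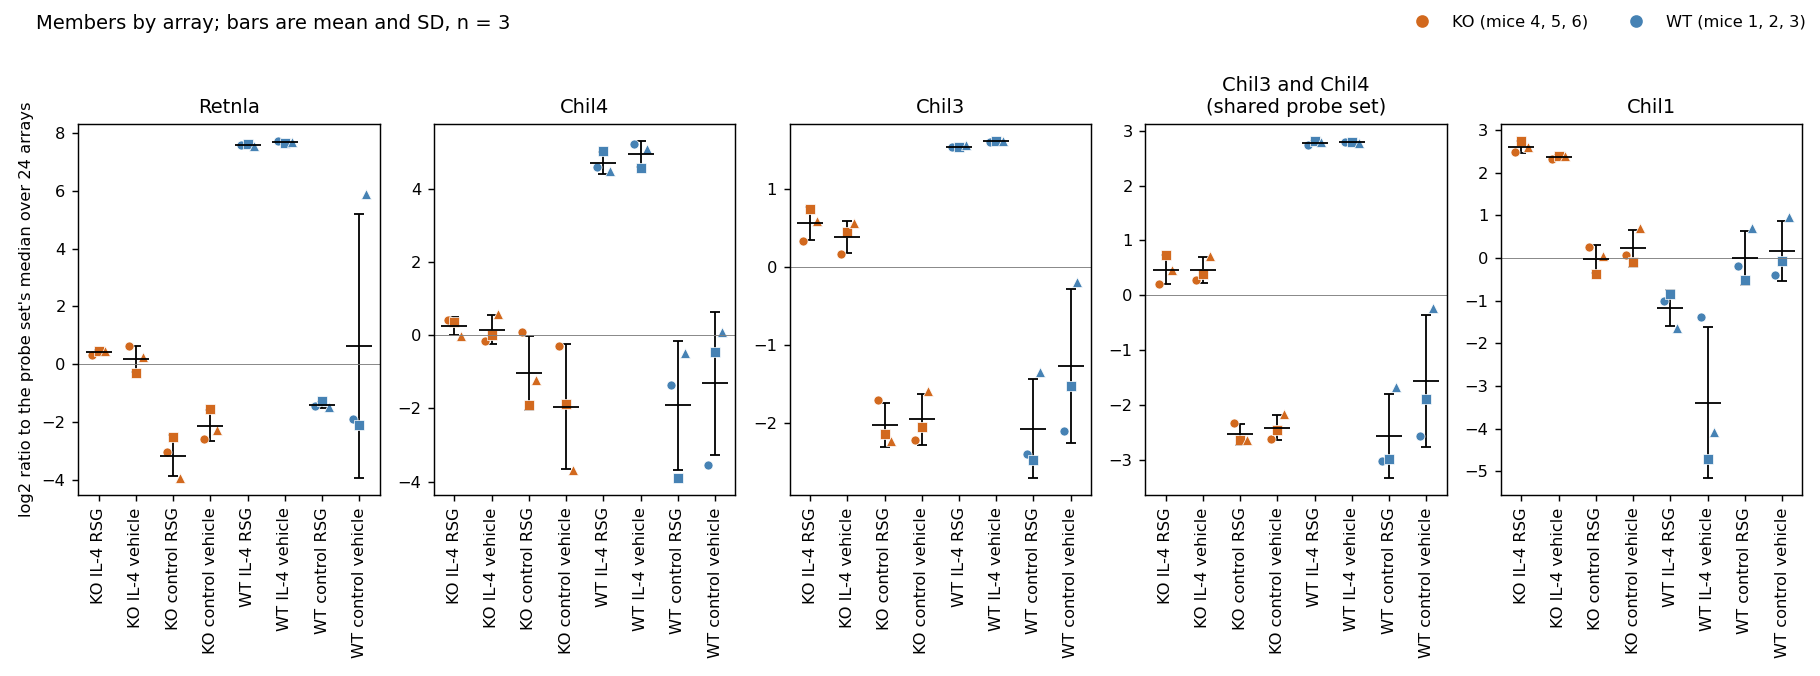
Log2 ratio (y axis) of each member and of the shared probe set on every array, by group (x axis), with KO arrays in orange and WT arrays in blue. Circles, squares and triangles stand for mice 4, 5 and 6 in KO and 1, 2 and 3 in WT, and bars for the mean and SD of 3 arrays. Retnla and Chil4 were high on the 6 WT IL-4 arrays, Chil3 was high there and intermediate on the 6 KO IL-4 arrays, and Chil1 was highest on the KO IL-4 arrays.

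Retnla was lower in KO than in WT in the IL-4 cultures. With IL-4 and vehicle, its log2 ratio was 0.62, -0.29 and 0.24 in KO mice 4, 5 and 6, against 7.73, 7.66 and 7.68 in WT mice 1, 2 and 3. With IL-4 and RSG it was 0.32, 0.45 and 0.47 in KO and 7.57, 7.61 and 7.56 in WT. All 6 KO arrays thus lay below all 6 WT arrays, by a wide margin. The difference, KO minus WT, was -7.50 ± 1.29 in vehicle (adjusted p = 0.000198), 180.4-fold lower in KO, and -7.16 ± 1.29 in RSG (adjusted p = 0.000404), 143.4-fold lower. The 6 WT IL-4 arrays were nearly identical for Retnla (SD 0.065), as they were for Chil3 (SD 0.039) and the shared probe set (SD 0.023). Whether these probe sets were at the top of their range there was not tested, so folds against these WT levels may be lower limits, and the sizes of the differences are not ranked between genes.

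Chil4 was lower in KO as well. With IL-4 and vehicle its log2 ratio was -0.16, 0.02 and 0.59 in KO, against 5.23, 4.55 and 5.09 in WT. With IL-4 and RSG it was 0.42, 0.36 and -0.02 in KO and 4.59, 5.05 and 4.49 in WT, again without overlap. KO was lower by 28.0-fold in vehicle (change -4.81 ± 0.93, adjusted p = 0.000602) and by 21.9-fold in RSG (change -4.45 ± 0.93, adjusted p = 0.00148).

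Chil3 was intermediate in KO IL-4 cultures, between its WT IL-4 and its control levels. With IL-4 and vehicle its log2 ratio was 0.16, 0.45 and 0.56 in KO, against 1.61, 1.62 and 1.63 in WT. With IL-4 and RSG it was 0.33, 0.75 and 0.60 in KO and 1.54, 1.54 and 1.57 in WT. The arrays did not overlap, and the change was -1.23 ± 0.36 in vehicle, 2.34-fold lower in KO (adjusted p = 0.0148), and -0.99 ± 0.36 in RSG (adjusted p = 0.0547), which was not called. The vehicle call was lost without mouse 2, 4 or 5 (adjusted p = 0.0569, 0.0793 and 0.0592) and without the KO IL-4 vehicle array of mouse 4 (adjusted p = 0.0587). The RSG change was called without mouse 3 (adjusted p = 0.00801) and in 5 other alternatives.

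The shared Chil3 and Chil4 probe set was also lower in KO. Its log2 ratio was 0.20 to 0.73 on the 6 KO IL-4 arrays and 2.75 to 2.81 on the 6 WT IL-4 arrays. The change was -2.33 ± 0.42 in vehicle (adjusted p = 0.00031) and -2.32 ± 0.42 in RSG (adjusted p = 0.000424). The signal of this probe set cannot be split between the 2 genes.

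Chil1 ran the other way. With IL-4 and vehicle its log2 ratio was 2.31, 2.39 and 2.40 in KO, against -1.38, -4.70 and -4.08 in WT. With IL-4 and RSG it was 2.48, 2.75 and 2.60 in KO and -1.00, -0.85 and -1.65 in WT, so every KO array was above every WT array. KO was higher by 53.9-fold in vehicle (change 5.75 ± 0.59, adjusted p = 7.66e-07) and by 13.7-fold in RSG (change 3.78 ± 0.59, adjusted p = 0.000107).

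In all, 4 of the 4 members were called between KO and WT with IL-4 and vehicle, 3 lower and 1 higher in KO, where 24.2% of all probe sets were called. With IL-4 and RSG, 3 of 4 were called, 2 lower and 1 higher, against 20.0% of all probe sets. The median change of the 4 members was -3.02 in vehicle and -2.72 in RSG, beside -0.25 and -0.19 over all probe sets. Without IL-4 no member was called between KO and WT in limma, with vehicle (0.109% of all probe sets called) or with RSG (0.0999%). At an unadjusted p under 0.05 in limma, 1 member, Retnla, passed there in vehicle and 0 in RSG. The methods' t-test called 0 members in both.

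Without IL-4, Chil3 read -1.71, -2.15 and -2.23 in KO control RSG, -2.23, -2.05 and -1.59 in KO control vehicle, -2.41, -2.48 and -1.35 in WT control RSG and -2.11, -1.53 and -0.19 in WT control vehicle cultures. Chil4 was spread widely in the same groups, at 0.07, -1.92 and -1.23 in KO control RSG, -0.29, -1.89 and -3.70 in KO control vehicle, -1.35, -3.90 and -0.50 in WT control RSG and -3.54, -0.47 and 0.08 in WT control vehicle cultures. Its group SDs without IL-4 were 1.01 to 1.95, against 0.24 to 0.39 with IL-4. The genotypes overlapped for both genes.

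Chil1 read 0.27, -0.38 and 0.06 in KO control RSG, 0.07, -0.10 and 0.71 in KO control vehicle, -0.18, -0.51 and 0.70 in WT control RSG and -0.40, -0.06 and 0.96 in WT control vehicle cultures, and the genotypes overlapped. Retnla read -3.04, -2.52 and -3.92 in KO control RSG, -2.58, -1.54 and -2.26 in KO control vehicle and -1.45, -1.28 and -1.47 in WT control RSG cultures. In WT control vehicle cultures it read -1.89 and -2.10 in mice 1 and 2 but 5.88 in mouse 3, far above every other array without IL-4. The KO minus WT change of Retnla was -2.75 ± 1.29 in control vehicle (adjusted p = 0.539), and -0.13 ± 0.33 with that array left out. In control RSG it was -1.76 ± 1.29 (adjusted p = 0.727) although the arrays did not overlap, and it was called with that array left out (SE 0.30, adjusted p = 0.0251).

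**Figure D2:**
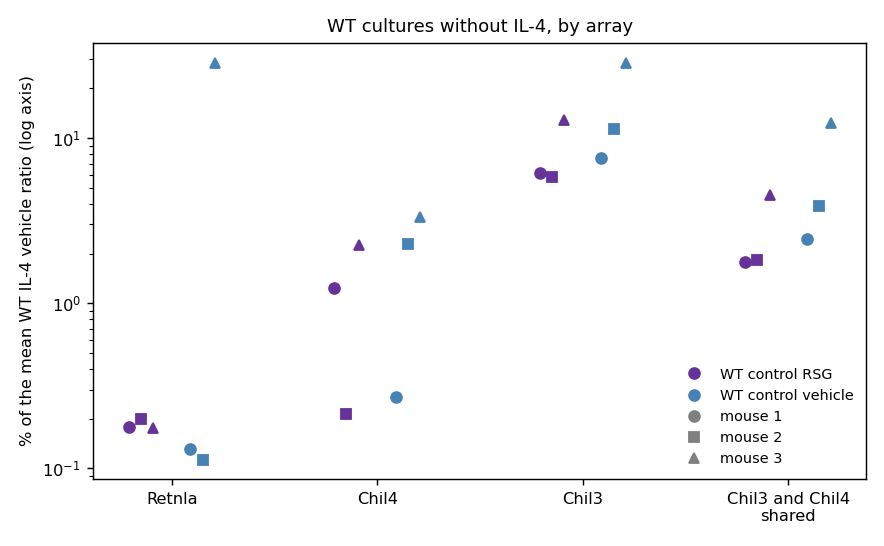
Level on each WT array without IL-4 (RSG in purple, vehicle in blue) as a percentage of the mean WT IL-4 vehicle ratio of the same probe set, on a log y axis, with genes on the x axis and mice as symbols. The vehicle array of mouse 3 stood at 28.7% for Retnla, where the other 5 arrays lay between 0.113% and 0.199%, and was the highest array for all 4 probe sets.

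The WT control vehicle array of mouse 3 was also the highest WT control array for Chil3 and the shared probe set. It stood at 28.7% of the mean WT IL-4 vehicle level for Retnla, 28.6% for Chil3 and 12.3% for the shared probe set. Mice 1 and 2 stood at 0.131% and 0.113% for Retnla, at 7.55% and 11.3% for Chil3 and at 2.44% and 3.90% for the shared probe set. For Chil4 it did not stand apart, at 3.33%, against 0.271% and 2.28% in mice 1 and 2 and 2.24% in the RSG culture of mouse 3. Its mean over 27 other alternative activation genes was 0.76, against -0.69 and -0.78 in mice 1 and 2. Its mean over 10 mast cell and basophil markers was 0.77, against -1.14 and -1.085, and over 5 eosinophil markers 1.20, against -0.78 and 0.08. Lymphocyte markers averaged 0.35, against -1.16 and -1.76, and dendritic cell markers 0.42, against -1.13 and -0.56. Neutrophil markers averaged 0.56, against -0.57 and -0.13, but stromal fibroblast markers -0.29, against 0.42 and 1.70. In the WT control RSG culture of the same mouse Retnla stood at 0.175%. What set this culture apart was not tested.

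The single array also entered the SE of Retnla in every comparison, because limma pools the spread over all groups. With it left out, the SE of the IL-4 responses was 0.30 to 0.33, against 1.29, and Retnla was called in further comparisons, which are given with each result. Chil3 between KO and WT with IL-4 and RSG was then called too (adjusted p = 0.00857).

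IL-4 raised the alternative activation members in WT cells. In WT with vehicle all 4 members were called, where 12.9% of all probe sets were. Retnla rose by 7.06 ± 1.29 on the log2 scale (133.1-fold, adjusted p = 0.000752), Chil4 by 6.27 ± 0.93 (77.1-fold, adjusted p = 0.000101) and Chil3 by 2.89 ± 0.36 (7.43-fold, adjusted p = 1.64e-05). The shared probe set rose by 4.35 ± 0.42. Chil1 fell by 3.55 ± 0.59 on the log2 scale, 11.7-fold lower with IL-4 (adjusted p = 0.000307). In the methods' t-test after adjustment none of the 4 was called, with adjusted p from 0.0584 to 0.218, and when only the compared arrays were fitted, Retnla and Chil1 were not (adjusted p = 0.147 and 0.101). Quantile normalization gave 4.69 for Retnla (adjusted p = 0.052), and leaving out the mouse 3 array of the WT control vehicle group gave 9.68 ± 0.33.

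In WT with RSG, 3 of 4 members were called, against 13.5% of all probe sets. Retnla rose by 8.98 ± 1.29 (505.7-fold, adjusted p = 6.94e-05), Chil4 by 6.62 ± 0.93 (98.5-fold, adjusted p = 5.58e-05) and Chil3 by 3.63 ± 0.36 (12.4-fold, adjusted p = 1.15e-06). The change of Chil1 was -1.17 ± 0.59 (adjusted p = 0.21), although its 3 IL-4 arrays lay below its 3 control arrays. It was called once the mouse 1 array of the WT IL-4 vehicle group was left out (adjusted p = 0.0302).

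IL-4 also moved members in the cells without STAT6. In KO with vehicle, 2 of 4 members were called, against 11.5% of all probe sets, and in KO with RSG again 2 of 4, against 6.83%. These were Chil3 and Chil1 both times. Chil3 rose by 2.35 ± 0.36 with vehicle (5.10-fold, adjusted p = 0.000197) and by 2.59 ± 0.36 with RSG (6.04-fold, adjusted p = 0.000179). The shared probe set rose by 2.87 ± 0.42 and 3.00 ± 0.42. Chil1 rose by 2.14 ± 0.59 with vehicle (4.40-fold, adjusted p = 0.0191) and by 2.63 ± 0.59 with RSG (6.18-fold, adjusted p = 0.00875). In every one of these comparisons all 3 IL-4 arrays lay above all 3 control arrays.

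Chil3 kept its call in KO in every alternative run. For Chil1 with vehicle, quantile normalization gave 1.74 (adjusted p = 0.069), and leaving out mouse 4, 5 or 6 gave adjusted p of 0.14, 0.174 and 0.092. Leaving out the KO control vehicle array of mouse 4 or 5, or the KO IL-4 vehicle array of mouse 4 or 6, gave 0.0566, 0.076, 0.0502 and 0.0524. With RSG its call was lost without mouse 4, 5 or 6 (adjusted p = 0.0772, 0.145 and 0.0752).

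Chil4 and Retnla were not called with IL-4 in KO. Chil4 changed by 2.11 ± 0.93 with vehicle (adjusted p = 0.155) and by 1.28 ± 0.93 with RSG (adjusted p = 0.488). Its arrays overlapped with RSG but not with vehicle. Retnla changed by 2.32 ± 1.29 with vehicle (adjusted p = 0.28) and by 3.58 ± 1.29 with RSG (adjusted p = 0.103), and its IL-4 arrays lay above the controls both times. With that WT control vehicle array of mouse 3 left out, the changes had an SE of 0.30 and were called (adjusted p = 4.48e-05 and 1.2e-06), and a fit of only the compared arrays called them too (adjusted p = 0.0302 and 0.0186).

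**Figure D3:**
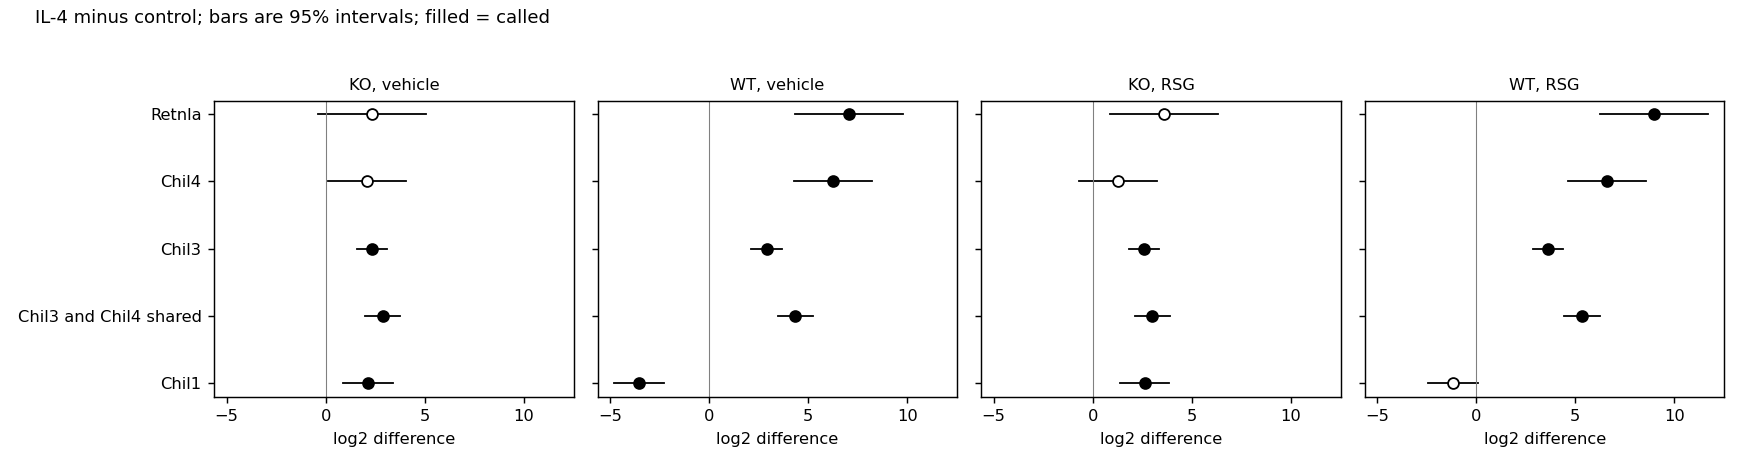
Change with IL-4 minus control on the log2 scale (x axis) of each member and the shared probe set (y axis), in KO and WT with vehicle and in KO and WT with RSG. Points are limma estimates, bars 95% intervals, and filled points the called changes. Retnla and Chil4 were not called in KO and lay between 6.27 and 8.98 in WT, Chil3 was called in all 4 panels, and Chil1 was called higher in KO and lower in WT with vehicle.

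The difference between the IL-4 responses was tested directly, as the KO response minus the WT response. With vehicle, 2 of 4 members were called, against 14.6% of all probe sets, and with RSG 2 of 4, against 11.2%. For Chil1 the difference was 5.69 ± 0.84 with vehicle (adjusted p = 0.000127) and 3.80 ± 0.84 with RSG (adjusted p = 0.00563). For Chil4 it was -4.16 ± 1.32 (adjusted p = 0.0401) and -5.34 ± 1.32 (adjusted p = 0.0123). The vehicle result for Chil4 was the least firm of these, and was lost in 16 of 26 alternatives, among them the fit of only the compared arrays (adjusted p = 0.0964), quantile normalization (-3.01, adjusted p = 0.185), centred arrays (adjusted p = 0.0532) and leaving out mouse 1 (-2.91, adjusted p = 0.196). With RSG, leaving out mouse 2 or 4 ended the call of Chil4 (adjusted p = 0.0947 and 0.0585), and leaving out mouse 5 that of Chil1 (adjusted p = 0.0554).

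For Chil3 the difference between the responses was -0.54 ± 0.51 with vehicle (95% interval -1.62 to 0.54, adjusted p = 0.569) and -1.03 ± 0.51 with RSG (95% interval -2.12 to 0.05, adjusted p = 0.234). It was called with RSG without mouse 3 (-1.39, adjusted p = 0.0195). For the shared probe set it was -1.48 ± 0.60 with vehicle (adjusted p = 0.111) and -2.34 ± 0.60 with RSG (adjusted p = 0.0147), and for Retnla -4.74 ± 1.83 (adjusted p = 0.0954) and -5.41 ± 1.83 (adjusted p = 0.0656). With that WT control vehicle array of mouse 3 left out, Retnla was at -7.37 ± 0.45 with vehicle (adjusted p = 2.58e-08) and -5.41 ± 0.42 with RSG (adjusted p = 4.32e-07). Chil3 was then at -1.09 ± 0.39 with vehicle (adjusted p = 0.0823) and -1.03 ± 0.37 with RSG (adjusted p = 0.081), neither called. The shared probe set was then at -2.15 ± 0.42 with vehicle (adjusted p = 0.00252). Its call with RSG was lost without mouse 2, 4, 5 or 6 (adjusted p = 0.107, 0.11, 0.0571 and 0.0641).

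Across the 6 WT IL-4 arrays, with and without RSG, some members were nearly constant. Chil3 lay between 1.54 and 1.63 (SD 0.039), the shared probe set between 2.75 and 2.81 (SD 0.023) and Retnla between 7.56 and 7.73 (SD 0.065). Over all probe sets the median SD on these arrays was 0.45, and 0.246%, 0.0155% and 1.94% of probe sets had a smaller SD than these 3. Chil4 had an SD of 0.32 there and Chil1 of 1.67, larger than 94.2% of all probe sets. On the 6 KO IL-4 arrays the SDs were 0.21 for Chil3, 0.22 for the shared probe set, 0.32 for Retnla, 0.30 for Chil4 and 0.16 for Chil1.

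No member was called with RSG in limma, nor in the methods' t-test. In KO with IL-4 the count was 0 of 4 (0.515% of all probe sets called), in KO without IL-4 0 of 4 (0.138%), in WT with IL-4 0 of 4 (0.688%) and in WT without IL-4 0 of 4 (0.118%). At an unadjusted p under 0.05 in limma, 0 passed in either KO comparison, 1 in WT with IL-4, Chil1, and 1 in WT without IL-4, Chil3. For the IL-4 markers, the estimated changes with RSG in IL-4 cultures were small, but the intervals were wide. Chil3 changed by 0.17 in KO (95% interval -0.59 to 0.94) and by -0.07 in WT (-0.83 to 0.70). Retnla changed by 0.23 in KO (-2.50 to 2.95) and by -0.11 in WT (-2.83 to 2.62). Chil4 changed by 0.10 in KO (-1.86 to 2.07) and by -0.25 in WT (-2.22 to 1.72). Chil3 and Retnla may have been at the top of their range on the WT IL-4 arrays, which was not tested. A rise with RSG could have been missed there. The RSG arrays of Chil3 and Retnla in WT all lay below the vehicle arrays, and those of Chil1 in KO all lay above (change 0.24 ± 0.59). None of these changes was called. The share of all probe sets whose arrays separated in this way is not given, so the separations are a description only.

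In WT cultures without IL-4 the changes with RSG were below 0 for all 4 members and not called, with values of -2.03 ± 1.29 for Retnla, -0.80 ± 0.36 for Chil3, -0.60 ± 0.93 for Chil4 and -0.16 ± 0.59 for Chil1. Chil3 had an adjusted p of 0.633 there. The vehicle group of this comparison held the array of mouse 3, and the shared direction rested on it. Without that array the change was 0.60 ± 0.33 for Retnla and -0.26 ± 0.29 for Chil3. For Chil4 it was then 0.091 ± 1.005 and for Chil1 0.235 ± 0.646, and no member was called. In KO cultures without IL-4 the changes were -1.04 ± 1.29 for Retnla, -0.07 ± 0.36 for Chil3, 0.93 ± 0.93 for Chil4 and -0.25 ± 0.59 for Chil1, and the arrays with and without RSG overlapped for each gene.

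Chil1 in WT IL-4 cultures had the largest change with RSG among the members, 2.22 ± 0.59 (95% interval 0.97 to 3.47, adjusted p = 0.117 in limma). Its call turned on 1 array. The RSG arrays read -1.00, -0.85 and -1.65, and the vehicle arrays -1.38 in mouse 1 and -4.70 and -4.08 in mice 2 and 3. Without the vehicle array of mouse 1 the change was 3.22 and was called (adjusted p = 0.000974), and without all arrays of mouse 1 it was 3.14 (adjusted p = 0.00789). Within mouse 1 the pair of arrays differed far less than within mice 2 and 3.

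The 2 comparisons of RSG responses gave no calls either. Taking the WT response to RSG with IL-4 minus that without IL-4, 0 of 4 members and 0.0289% of all probe sets were called. Taking the KO minus the WT response to RSG in IL-4 cultures, 0 of 4 and 0.362% were. At an unadjusted p under 0.05 in limma 1 member, Chil1, passed in each. Chil1 was at 2.38 ± 0.84 (adjusted p = 0.632) and at -1.98 ± 0.84 (adjusted p = 0.571). Without the WT IL-4 vehicle array of mouse 1 it was called in both (3.38, adjusted p = 0.0355, and -2.98, adjusted p = 0.0276).

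**Figure D4:**
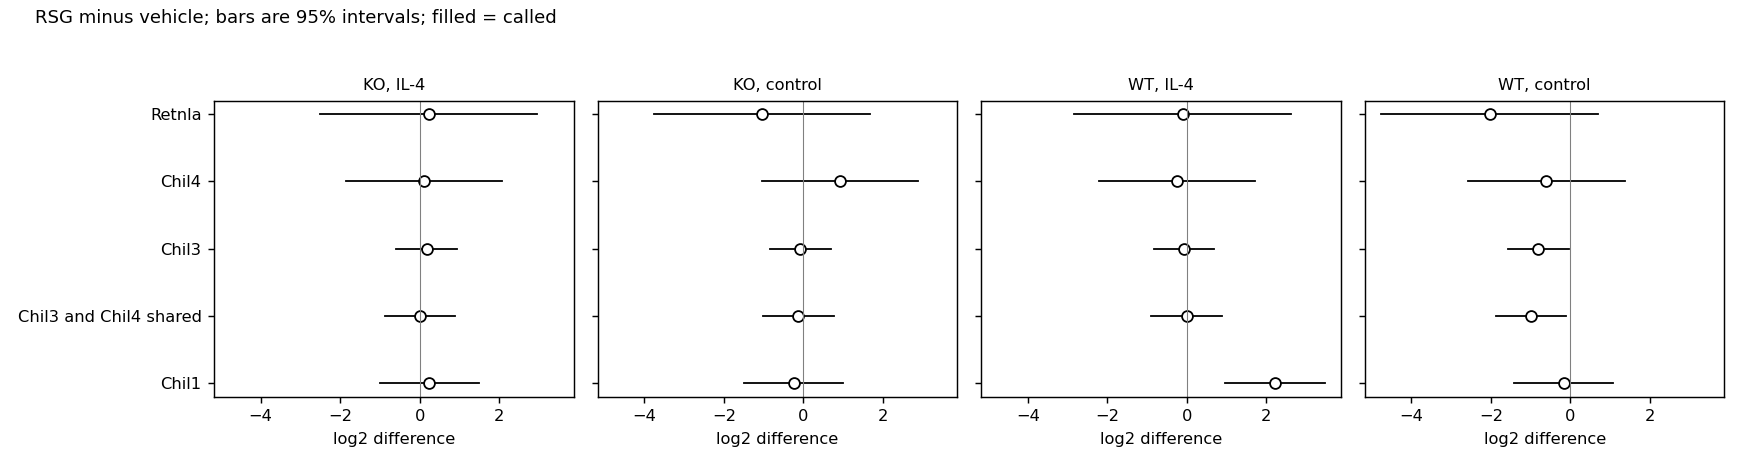
Change with RSG minus vehicle on the log2 scale (x axis) of each member and the shared probe set (y axis), in KO with and without IL-4 and in WT with and without IL-4. Points are limma estimates and bars 95% intervals, and open points mark changes that were not called. Chil1 in WT with IL-4 lies at 2.22, and all points are open.

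The order of the groups by mean log2 ratio differed among the members. For Chil3 it ran from WT IL-4 vehicle (1.62) over WT IL-4 RSG (1.55), KO IL-4 RSG (0.56) and KO IL-4 vehicle (0.39) to the 4 control groups (-1.27 to -2.08). The KO IL-4 groups overlapped each other, and the control groups overlapped their neighbours. For Chil4 the WT IL-4 groups (4.96 and 4.71) overlapped each other, and all groups from KO IL-4 RSG (0.25) down to KO control vehicle (-1.96) overlapped their neighbours. For Retnla the WT IL-4 groups (7.69 and 7.58) were followed by WT control vehicle (0.63, with an SD of 4.55), the KO IL-4 groups (0.42 and 0.19), WT control RSG (-1.40) and the KO control groups (-2.13 and -3.16). For Chil1 the KO IL-4 groups came first (2.61 and 2.37), the 4 control groups lay together (0.23 to -0.02) and the WT IL-4 groups came last (-1.17 and -3.39).

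Of 9 further chitinase and resistin family genes listed, 7 were measured. With IL-4 and vehicle, 0 of 7 were called in KO in limma (1 at an unadjusted p under 0.05), and in WT 1 was lower, Retn, which encodes resistin itself (-2.78 ± 0.72, adjusted p = 0.0115). The list medians were 0.14 in KO and 0.28 in WT, beside -0.14 and 0.09 over all probe sets. With IL-4 and RSG, 1 was higher in KO, Retnlb, a resistin-like gene of the gut (2.15 ± 0.61), and 1 in WT, Ctbs, a lysosomal chitobiase (0.76 ± 0.22). Between KO and WT with IL-4 and vehicle, Ovgp1, an oviduct glycoprotein of the chitinase family, was higher in KO (0.79 ± 0.27), and Ctbs (-1.15 ± 0.22) and Chid1, a chitinase-domain gene (-0.90 ± 0.19), were lower. Of all probe sets, 11.5% and 12.9% were called with IL-4 and vehicle in KO and WT, and 6.83% and 13.5% with IL-4 and RSG. Between KO and WT with IL-4 and vehicle, 24.2% were called. With so few genes the counts say nothing particular about the family. The active chitinases Chia1 and Chit1 were not called in any of the 16 comparisons.

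Of 6 genes for reported binding partners of the CHIL1 and resistin proteins, 0 were called with IL-4 in either genotype in limma, where 11.5% (KO) and 12.9% (WT) of all probe sets were called with vehicle and 6.83% and 13.5% with RSG. At an unadjusted p under 0.05, 2 passed with vehicle and 0 with RSG in KO, and 2 with vehicle and 1 with RSG in WT. Between KO and WT with IL-4, 1 was lower in KO with vehicle, Cd44, a hyaluronan receptor (-0.74 ± 0.11), and 1 with RSG, Tmem219, a membrane protein that binds the CHIL1 receptor IL-13Rα2 (-0.76 ± 0.18), where 24.2% and 20.0% of all probe sets were called. With so few genes these counts say nothing particular about the list. Of 12 measured genes of IL-4 receptor signalling and the C/EBP factors, 3 were higher and 2 lower with IL-4 and vehicle in KO, and 2 were higher and 2 lower in WT, where 11.5% and 12.9% of all probe sets were called. The list medians were -0.15 in KO and 0.15 in WT, beside -0.14 and 0.09 over all probe sets. Socs1, a feedback inhibitor of cytokine receptors, rose by 3.01 ± 0.73 in KO and by 3.58 ± 0.73 in WT. Cebpb, a transcription factor of myeloid cells, rose by 0.63 ± 0.13 in KO and by 0.83 ± 0.13 in WT. Cebpa, a factor of the granulocyte and monocyte lineage, fell by 0.83 ± 0.12 in KO.

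Among 27 measured other genes of alternative activation, 10 were higher and 2 lower with IL-4 and vehicle in KO. In WT, 20 were higher and 2 lower. List medians were 1.05 and 2.23, beside -0.14 and 0.09 over all probe sets, of which 11.5% and 12.9% were called. Arg1, which encodes arginase, was at 7.90 ± 1.00 in KO and 9.68 ± 1.00 in WT. Its mean with IL-4 and vehicle was 3.45 in KO and 8.38 in WT, and with IL-4 and RSG 0.16 and 8.42. For Arg1 the WT control vehicle arrays spanned -3.38 to 2.19, and the WT IL-4 vehicle arrays were nearly identical (SD 0.038). Whether the latter were at the top of the range was not tested. The largest other called changes in KO were in Cdh1, the E-cadherin gene (6.50 ± 0.95), the chemokine gene Ccl22 (4.44 ± 0.61) and the lipoxygenase gene Alox15 (4.35 ± 0.91). In WT they were in the lectin gene Mgl2 (5.80 ± 0.74), Pdcd1lg2, a PD-1 ligand (5.30 ± 0.34), and the chemokine gene Ccl24 (4.91 ± 0.66). Between KO and WT with IL-4 and vehicle, 3 were higher and 18 lower in KO, and the response differed in KO for 14 genes, 3 higher and 11 lower. Leaving out the mouse 3 array of the WT control vehicle group, these counts were 2 and 13. Of all probe sets, 24.2% were called between KO and WT and 14.6% for the difference of the responses. Of those calls, 28.6% and 32.4% were higher in KO.

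The neutrophil and granule precursor markers moved with Chil1 (Pearson r = 0.89 with their mean over the 24 arrays). The correlation was lower for other lists, such as eosinophil (r = 0.73), macrophage identity (r = 0.70), mast cell and basophil (r = 0.67) and lymphocyte markers (r = 0.50). Of 14 neutrophil and granule precursor markers, 14 were higher with IL-4 and vehicle in KO (median 2.96) and 8 were lower in WT (median -2.70). With IL-4 and RSG, 13 were higher in KO (median 2.67) and 6 were lower in WT (median -1.44). Of all probe sets, 11.5% and 12.9% were called in KO and WT with vehicle, and 6.83% and 13.5% with RSG. The mean over these markers was 2.96 to 3.31 in KO IL-4 vehicle, 3.05 to 3.32 in KO IL-4 RSG, -3.09 to -2.49 in WT IL-4 vehicle and -3.09 to -2.60 in WT IL-4 RSG cultures, and -0.58 to 0.56 in cultures without IL-4. The granule protease genes Prtn3, Mpo and Ctsg rose by 5.88 ± 0.75, 5.52 ± 0.53 and 5.46 ± 0.35 in KO, and the neutrophil genes Ngp and S100a9 were at -6.71 ± 0.37 and -6.45 ± 0.30 in WT, both called. The arrays at the top, middle and bottom for these markers were those at the top, middle and bottom for Chil1. Within the 6 WT IL-4 arrays Chil1 spanned -4.70 to -0.85 while the marker mean spanned -3.09 to -2.49. The part of neutrophil-lineage RNA in the Chil1 result was not tested, and in bulk cultures fewer cells of a type and less RNA per cell cannot be told apart.

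**Figure D5:**
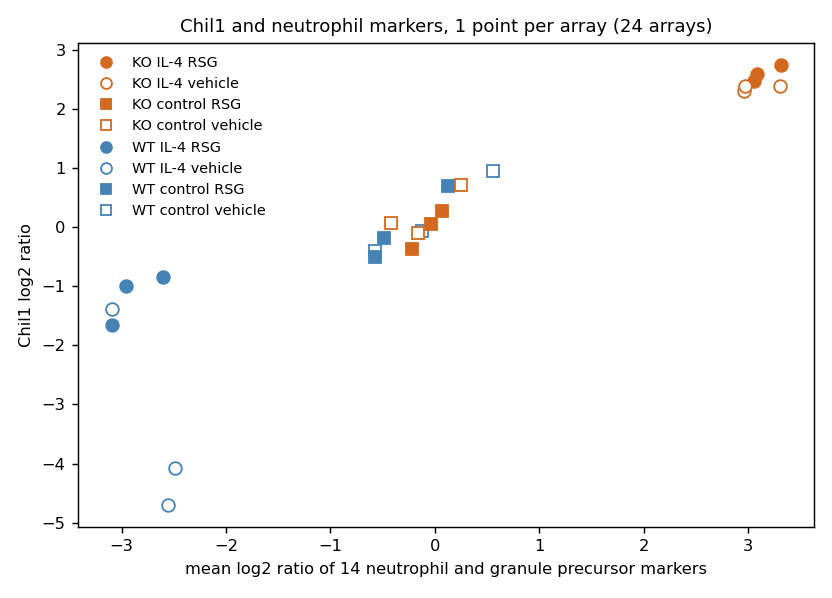
Chil1 log2 ratio (y axis) against the mean log2 ratio of 14 neutrophil and granule precursor markers (x axis), 1 point per array, with KO in orange, WT in blue, circles for IL-4, squares for control and filled symbols for RSG. The 6 KO IL-4 arrays lie at 2.96 to 3.32 on the x axis, the 6 WT IL-4 arrays at -3.09 to -2.49 and the 12 control arrays between them.

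Other marker lists also differed on the KO IL-4 arrays. Of 10 mast cell and basophil markers, 8 were higher with IL-4 and vehicle in KO, and their mean was 4.12 to 4.71 there, against -0.65 to -0.12 in WT IL-4 vehicle cultures. Of 10 lymphocyte markers, 9 were higher in KO (mean 3.39 to 3.82, against -0.52 to 0.56 in WT IL-4 vehicle), and of 5 eosinophil markers, 2 were higher in KO (mean 1.88 to 2.19, against -1.28 to 0.23). Of 7 dendritic cell markers 1 was higher in KO, and of all probe sets 11.5% were called there. Retnla, Chil4 and Chil3 were lower in these KO cultures than in WT, and the part of these cell types in the Chil3 response of KO was not tested.

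The genes with the most similar pattern over the 24 arrays, by Pearson correlation among 20004 probe sets with an SD of at least 0.5, are given as a description. The arrays share 6 mice and fall into 8 groups. For Chil3 they were F10, coagulation factor X (r = 0.98), Gda, guanine deaminase (r = 0.98), and the chemokine gene Ccl6 (r = 0.97). F10 read 0.14 to 1.11 on the KO IL-4 arrays and 2.10 to 2.54 on the WT IL-4 arrays, so like Chil3 it was intermediate in KO. For Retnla they were Batf3, a transcription factor gene (r = 0.97), F7, coagulation factor VII (r = 0.96), and Csf2rb, the common beta chain of the GM-CSF, IL-3 and IL-5 receptors (r = 0.96). For Chil4 they were Btbd11 (r = 0.93), Acp5, tartrate-resistant acid phosphatase (r = 0.93), and Csf2rb (r = 0.93). For Chil1 they were Slc2a3, a glucose transporter gene (r = 0.95), Myb, a transcription factor of immature blood cells (r = 0.94), and Prim1, a DNA primase subunit (r = 0.94). F7 averaged 0.26 in KO IL-4 vehicle and 4.25 in WT IL-4 vehicle cultures, and Myb averaged 4.40 in KO IL-4 vehicle and -4.16 in WT IL-4 vehicle cultures, beside -0.03 in KO control vehicle and 0.04 in WT control vehicle cultures.

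Among the members, Chil3, Chil4 and Retnla followed each other over the 24 arrays (r = 0.87 for Chil3 and Chil4, 0.86 for Chil3 and Retnla and 0.88 for Chil4 and Retnla). Chil1 had r of -0.19 with Chil3, -0.49 with Chil4 and -0.53 with Retnla.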

How the data were processed

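Total RNA of 24 macrophage cultures was hybridised to Affymetrix mouse genome arrays. The authors deposited 1 table of linear ratios. Per the study's methods, scans were processed with GC-RMA in GeneSpring, scaled to each array's median and divided by each probe set's median. The methods also name division by the vehicle control, which these ratios do not carry. Ratios were taken to log2. Of 45101 probe sets, 64 controls were left out, and limma 3.58.1 in R 4.3.3 fitted all 24 arrays in 8 groups, without a variance trend because a mean of ratios is not a level (16 residual and 1.36 prior degrees of freedom). Tests were two-sided, over 16 comparisons. The fit was tested on simulated data.

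Symbols came from the platform annotation (34945 probe sets with 1 symbol, 932 with several, 9160 with none listed). A list gene was represented by 1 probe set chosen without its values, and at most 4 called members with the largest changes were named for each list and comparison. The members, lists and tests were chosen with earlier results of these data known. Genes with the most similar pattern were the 3 with the highest correlation. Promoters came from RefSeq and were aligned with Biopython 1.88.

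The labels give each array a mouse, so arrays with the same number share an animal. Same-mouse arrays hardly deviated together (mean correlation 0.011 over 36 pairs, 0 above 0.1). Alternatives were the mouse as a replicate block, a variance trend, the compared arrays alone, quantile normalization, centred arrays, a floor of 0.05, the methods' t-test, single-symbol probe sets, probe sets with a median of 1, and leaving out each mouse or array. Leaving out 2 arrays in comparisons that did not hold them was chosen after seeing the data.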

Additional observations from a re-analysis of the deposited data

Results flagged for a closer look

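The IL-4 response differed between KO and WT, by a test of the difference itself, for Chil1 with vehicle (5.69 on the log2 scale, adjusted p = 0.000127) and with RSG (3.80, adjusted p = 0.00563). It differed for Chil4 with vehicle (-4.16, adjusted p = 0.0401) and with RSG (-5.34, adjusted p = 0.0123), and for the shared Chil3 and Chil4 probe set with RSG (-2.34, adjusted p = 0.0147). All are limma values of the KO response minus the WT response over 3 arrays per group. The Chil4 result with vehicle was lost in 16 of 26 alternatives, with adjusted p of 0.0153 to 0.196 over all 26.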

How the results depend on the processing

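No change of a called member reversed under any alternative run. The mouse as a replicate block (estimated correlation 0.011) changed no member's call, and it moved the count over all probe sets by more than 1.5 times in 1 comparison, the RSG response with IL-4 minus that without in WT (5 calls, against 13). The count of called members with IL-4 in KO and vehicle was 1 after quantile normalization, against 2, and 1 to 3 without single mice or arrays. With IL-4 in WT and vehicle it was 2 when only the compared arrays were fitted and 0 in the methods' t-test, against 4. For the IL-4 response with vehicle in KO minus WT it was 1 when only the compared arrays were fitted, 1 after quantile normalization and 1 after centring the arrays, against 2, and 1 to 3 without single mice or arrays. The range without single mice or arrays was 1 to 3 for IL-4 in KO with RSG, 0 to 1 for RSG with IL-4 in WT, 0 to 1 for KO against WT in control RSG cultures, 1 to 4 for the IL-4 response with RSG in KO minus WT, 0 to 1 for the WT response to RSG with IL-4 minus that without and 0 to 1 for the KO minus the WT response to RSG in IL-4 cultures. Of the values of single members under alternatives, 1337 kept their call or its absence, 41 lost a call and 22 gained one.

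Over all probe sets, fitting only the compared arrays called 0 for each RSG response and for KO against WT without IL-4, and 2950, 2852, 745 and 3578 for IL-4 in KO and WT with vehicle and in KO and WT with RSG, against 5186, 5831, 3076 and 6065. It called 3238 for the IL-4 response with RSG in KO minus WT, against 5041, and 75 for the KO minus the WT response to RSG in IL-4 cultures, against 163. The methods' t-test called 3157, 2914, 562 and 3723 in the same 4 IL-4 comparisons, 0 to 1 for the RSG responses and 0 to 2 for KO against WT without IL-4. Quantile normalization gave 7018 calls, against 10920, between KO and WT with IL-4 and vehicle, 4147, against 6561, for the IL-4 response with vehicle in KO minus WT, and 8 to 224 in 7 comparisons with few calls. Between KO and WT with IL-4 and vehicle the share of calls that were higher in KO was 43.6% after quantile normalization and 46.7% after centring, against 28.6%, and for the IL-4 response with vehicle in KO minus WT 50.5% and 47.3%, against 32.4%. Between KO and WT with IL-4 and RSG it was 40.5% after quantile normalization and 45.2% after centring, against 28.9%. For IL-4 in KO with vehicle the share of calls that were higher with IL-4 was 47.6% after quantile normalization and 54.0% after centring, against 36.9%. The median of all probe sets in these 4 comparisons was -0.25, -0.24, -0.19 and -0.14. No depth is known for ratios of this kind, and 3 arrays per group limit what could be called.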
